A study of Mus musculus with 20 samples.

Results

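The genes described here are 37 interferon-stimulated genes of the mouse, which are switched on in most cells when an interferon reaches them. They form a list of gene symbols drawn up with earlier results of these data known, and a member is the gene with exactly that symbol in the count tables of both the tissue and the sorted cells. All 37 were present among the 54532 genes counted, and all 37 passed the filter on low counts in every comparison below. They are read across liver tissue that held increasing amounts of colorectal tumor and in macrophage fractions sorted from such tissue.

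Interferons are secreted proteins that bind receptors on the cell surface and activate kinases of the Janus family. Type I interferons (alpha and beta) then assemble a complex called ISGF3, which includes Stat2 and Irf9 and binds a DNA element named the ISRE, whereas type II interferon (gamma) acts on an element named GAS. The induced genes fall into roles: regulators of the pathway itself, sensors of viral or misplaced nucleic acid, effectors that block viral replication, and the guanylate-binding proteins (GBP) and immunity-related GTPases (IRG) that attack intracellular vacuoles and respond strongly to interferon gamma. In the liver, hepatocytes, Kupffer cells (the resident macrophages) and recruited monocytes can all respond to interferon.

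The mice were wild-type C57BL/6 animals that the labels of the tissue samples give as male and the study's methods as female, aged 6 to 8 weeks. Tumor-bearing mice had received 1000000 MC38 cells, a mouse colon adenocarcinoma line, by spleen-portal injection to give colorectal liver metastases (CRLM), and control mice had received normal saline. Tissue was taken as healthy control liver (con, day 0, 2 libraries), tumor-free liver of a tumor-bearing mouse, taken remote from the tumor (L-con, day 12, 1 library), low-content tumor (Lt, day 9, 2 libraries), medium-content tumor (Mt3, day 9, and Mt2 and Mt1, day 11, 2 libraries each) and high-content tumor (Ht, day 12, 3 libraries). Tumor content and day therefore went largely together (Lt and Mt3 share a day, as do Mt2 and Mt1), and their effects cannot be told apart. From Mt2 lesions, cells bound by F4/80 microbeads (F4/80+, 3 libraries) and cells bound by CD11b microbeads (CD11b+, 3 libraries) were taken at day 11, with no sex given in their labels. All mice outside con carried MC38 cells, and MC38 is a single tumor line. The methods describe Ht_1 and Ht_3 as the same material, so their counts were summed to 1 sample (Ht_1+3), which leaves 2 Ht samples. The methods give 2 livers per tissue group, L-con apart, and do not say how many livers the 3 libraries of each sorted fraction came from, so their p-values measure the spread between these libraries, which may be technical.

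The libraries held 16032085 to 20548370 counted reads each. Levels are CPM, the counts of a gene per 1000000 counts of the library. They are scaled with TMM factors, which correct for a few genes taking many reads. Over the 19 samples these factors ran from 0.664 in con_1 to 1.53 in Ht_1+3. Summed hepatocyte markers (12 genes) were 205700 and 179300 CPM in con and 3533 and 4977 CPM in Ht, whereas summed macrophage markers (10 genes) were 466 to 714 CPM in con, 2102 and 2148 CPM in Ht and 13570 to 20820 CPM in the 6 sorted libraries. The library CD11b+_3 stood apart from the other 2 CD11b+ libraries, with summed neutrophil markers (7 genes) of 3620 CPM against 1196 and 1207 CPM. A gene was called higher or lower when edgeR's quasi-likelihood test gave a Benjamini-Hochberg adjusted p of at most 0.05 over all genes tested and the change was at least 2-fold, which is a log2 fold change of 1.

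Many members lie in clusters of related genes (build GRCm38). Oas2, Oas3 and Oas1a lay in one stretch of chr5 (Oas3 at chr5:120753098-120777661), Oasl2 and Oasl1 lay close together elsewhere on that chromosome, Gbp5, Gbp7, Gbp3 and Gbp2 stood in a row on chr3, and Ifit2, Ifit3 and Ifit1 on chr19. Promoter sequence from RefSeq (GRCm38.p6, 250 bases before to 50 after a start) was given for 27 of the 37 genes. The ISRE core, searched as GAAANNGAAA or its reverse complement TTTCNNTTTC, was in a promoter of 17 of these 27 genes (63%) and in 3.99% of all 27025 genes with a promoter. The GAS core TTCNNNGAA, which reads the same on both strands, was in 8 of the 27 (29.6%) and in 9.55% of all genes. All 6 of the GBP and IRG genes with a promoter held an ISRE core, against 4 of 6 sensors and OAS genes, 4 of 6 antiviral effectors, 2 of 5 genes of the ISGF3 group and 1 of 4 of the other induced genes. GAS cores were in 3 of 6 GBP and IRG genes, 2 of 6 sensors and OAS genes and 2 of 6 antiviral effectors. They were in 0 of 5 genes of the ISGF3 group and 1 of 4 of the other induced genes. Matches are letters in a window and not shown to be bound. A gene without a match lacks these letters in this window only.

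The 250 bases before the start of 5 members follow, with ISRE cores in capitals. They are shown for members described below: Isg15 and Ifit1 rose in Lt, Mt and Ht, Oas3 had the largest change, Oasl2 was the member that rose further between Lt and Ht, and Irgm1 is one of the IRG genes, called in Lt and not in Mt or Ht.
Isg15 (chr4:156200819-156201068, minus strand): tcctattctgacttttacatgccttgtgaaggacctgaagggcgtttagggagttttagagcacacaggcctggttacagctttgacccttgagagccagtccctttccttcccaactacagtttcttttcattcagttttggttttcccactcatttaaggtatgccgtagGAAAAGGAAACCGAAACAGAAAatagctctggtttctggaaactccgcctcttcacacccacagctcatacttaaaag
Oas3 (chr5:120777660-120777909, minus strand): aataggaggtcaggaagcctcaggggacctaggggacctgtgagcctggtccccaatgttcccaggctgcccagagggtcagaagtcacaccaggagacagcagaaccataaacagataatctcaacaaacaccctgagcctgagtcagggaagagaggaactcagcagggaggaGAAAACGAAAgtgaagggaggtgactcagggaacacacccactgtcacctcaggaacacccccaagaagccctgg
Oasl2 (chr5:114896684-114896933, plus strand): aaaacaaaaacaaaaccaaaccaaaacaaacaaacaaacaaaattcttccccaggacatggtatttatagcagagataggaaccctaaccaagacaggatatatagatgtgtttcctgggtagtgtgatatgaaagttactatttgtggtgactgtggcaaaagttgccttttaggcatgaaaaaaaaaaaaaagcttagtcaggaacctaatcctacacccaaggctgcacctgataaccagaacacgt
Ifit1 (chr19:34640639-34640888, plus strand): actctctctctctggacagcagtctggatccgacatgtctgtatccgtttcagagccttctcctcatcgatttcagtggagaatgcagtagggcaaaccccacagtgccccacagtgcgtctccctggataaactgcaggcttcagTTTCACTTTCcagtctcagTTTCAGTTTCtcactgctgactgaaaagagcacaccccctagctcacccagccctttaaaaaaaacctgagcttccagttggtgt
Irgm1 (chr11:48871421-48871670, minus strand): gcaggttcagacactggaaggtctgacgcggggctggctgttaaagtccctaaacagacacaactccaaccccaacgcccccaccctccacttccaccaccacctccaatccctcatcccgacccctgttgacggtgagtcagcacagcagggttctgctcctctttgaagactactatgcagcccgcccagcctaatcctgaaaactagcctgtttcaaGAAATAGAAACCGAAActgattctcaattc
Isg15 held 3 overlapping cores in 1 run, Irgm1 held 2 that overlap close to the start, Ifit1 held 2 separate ones read on the opposite strand, Oas3 held 1, and Oasl2 held none in this window.

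From con to Lt, the lowest tumor content, 28 of the 37 members rose and 0 fell, against 12.4% of all 17187 genes tested called higher and 0.256% called lower. Both Lt libraries were above both con libraries for all 37 members, as was so for 37.2% of all genes. The median log2 fold change was 1.81 over the members and 0.10 over all genes. The 9 members that were not called also had positive values, from 0.37 for Iigp1 to 0.92 for Bst2. Without con_2 the median over the members was 1.87, without Lt_2 1.57 and without con_1 2.02, against 0.12, 0.073 and 0.11 over all genes. Fewer members were then called higher, as were fewer of all genes. Each of these fits leaves 1 sample in a group, which is then assumed to vary like the other groups. In bulk tissue, more cells of a type that carries these transcripts cannot be told apart from more transcript per cell. Summed monocyte markers (6 genes) went from 9.74 and 12.8 CPM in con to 226 and 534 CPM in Lt, and macrophage markers to 981 and 1393 CPM, and their part in the rise was not tested.

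The rise was also present at higher tumor content. From con to Mt (the mean of Mt3, Mt2 and Mt1) 27 members rose and 0 fell, against 20.2% and 10.3% of all genes, with a median log2 fold change of 1.74. From con to Ht 27 rose and 1 fell, against 25.8% and 24.1% of all genes, with a median of 2.11. Scaled to total counts alone, the all-gene median was 0.72 in Mt and 1.27 in Ht. In Mt 34 members were then called higher, beside 5556 of the 17187 genes tested. In Ht 36 members were called higher and Iigp1 lower, beside 8822 higher and 2249 lower among all genes. The share of higher calls among all calls then went from 66.3% to 90.6% in Mt and from 51.7% to 79.7% in Ht. All 10 lesion samples were above both con libraries for 34 of the 37 members (26.7% of all genes); the exceptions were Stat2, Iigp1 and Igtp. The mean log2(CPM + 1) of the 37 genes was 4.09 ± 0.185 (SD, n = 2) for con and 5.02 for the single L-con library. For the lesion groups (n = 2 each) it was 5.86 ± 0.434 for Lt, 5.74 ± 0.439 for Mt3, 5.99 ± 0.289 for Mt2, 5.89 ± 0.265 for Mt1 and 6.12 ± 0.0686 for Ht. On this scale every lesion group was above con and L-con, and the lesion groups overlapped one another except for Mt3, whose 2 libraries were below both Ht samples.

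**Figure D1:**
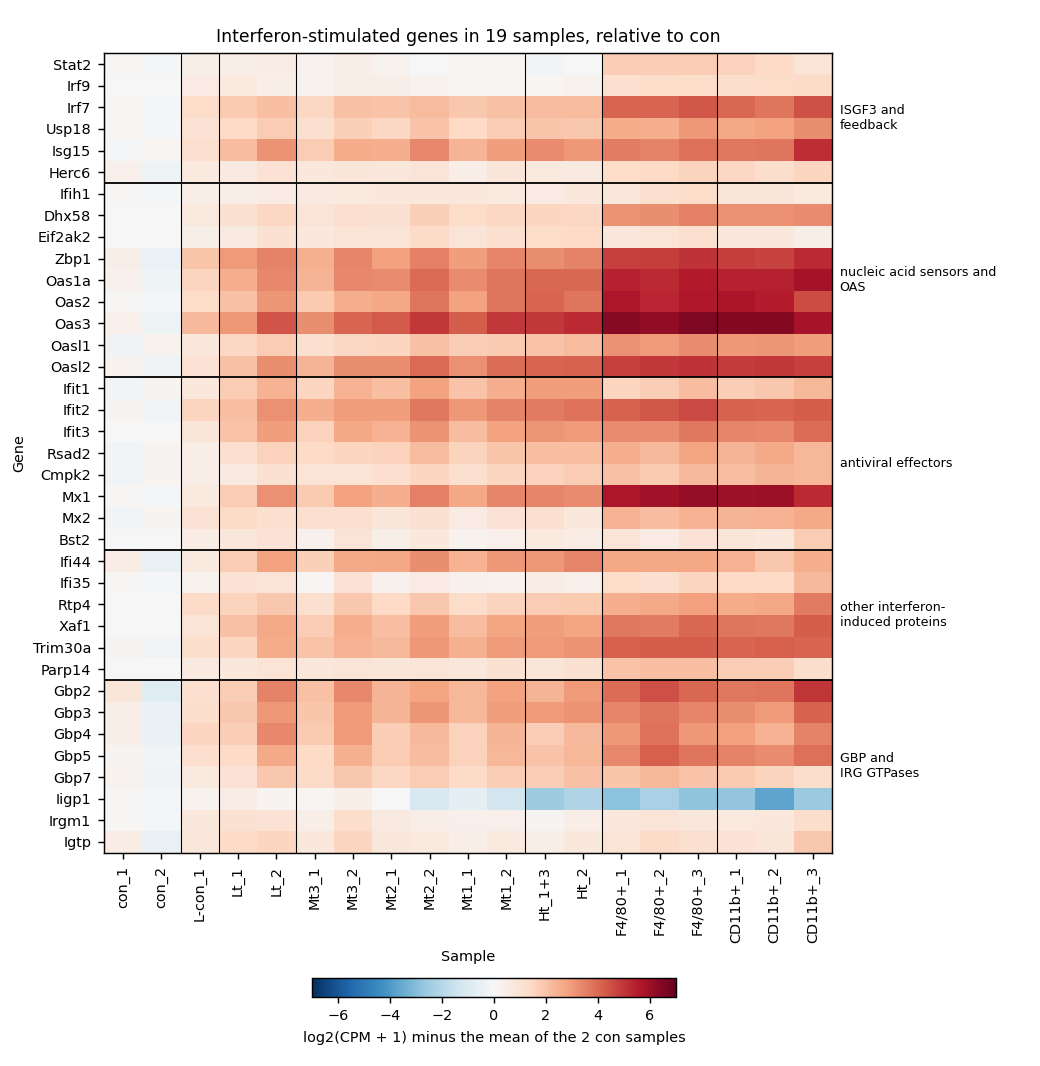
Heat map of the 37 interferon-stimulated genes (rows, by role) in 19 samples (columns; Ht_1+3 is the sum of 2 libraries), coloured by log2(CPM + 1) minus the mean of the 2 con samples, with red above and blue below con. Most rows are red in all lesion samples and darker in the sorted cells, Oas3 and Mx1 reach the darkest red there, and Iigp1 is the row that turns clearly blue in Ht and in the sorted cells.

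Within the lesion groups, 1 library of a pair was above the other for most members, a count that was not made over all genes. Replicate 2 was above replicate 1 for 32 members in Lt, 36 in Mt3, 31 in Mt2 and 34 in Mt1, whereas in con replicate 1 was above replicate 2 for 26 members. The median difference was 0.53 in Lt and 0.73 in Mt3 on the log2(CPM + 1) scale; the means of the lesion groups lay closer together than that. Replicate 2 also had the lower hepatocyte sum in these groups, 93610 against 172600 CPM in Lt and 25210 against 101300 CPM in Mt2, and the part of this in the difference was not tested.

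Among the regulators of the pathway (Stat2, Irf9, Irf7, Usp18, Isg15 and Herc6), 3 of 6 rose in each of Lt, Mt and Ht. These were Irf7, Usp18 and Isg15. Beside this and the counts of the other roles below, 12.4% of all genes were called higher in Lt, 20.2% in Mt and 25.8% in Ht. In Ht 24.1% of all genes were called lower. Irf7 is the transcription factor that amplifies type I interferon production. Its CPM was 53.6 and 45.3 for con, 122 for L-con, 180.4 and 216 for Lt, 136 and 211 for Mt3, 199 and 235 for Mt2, 188 and 207 for Mt1, 221 and 232 for Ht, 835, 841 and 1027 for F4/80+ and 802, 677 and 1084 for CD11b+ cells. All lesion samples were above con, and all sorted libraries were far above every tissue sample. The log2 fold change of Irf7 was 2.01 ± 0.25 (SE) from con to Lt (adjusted p = 0.00187) and 2.18 ± 0.25 from con to Ht (0.00017).

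Isg15 encodes a ubiquitin-like protein that is coupled to other proteins. Its CPM was 10.1 and 12.2 for con, 26.3 for L-con, 53.6 and 105 for Lt, 39.9 and 71.4 for Mt3, 69.9 and 123 for Mt2, 60.8 and 92.2 for Mt1, 117 and 98.2 for Ht, 142, 135 and 171 for F4/80+ and 153, 162 and 439 for CD11b+ cells. Every lesion sample lay above L-con and con, both Ht samples lay above all Mt3 and Mt1 libraries, and a single CD11b+ library was far above all others. Isg15 rose by 2.84 ± 0.44 (SE, log2) in Lt (adjusted p = 0.00372) and by 3.26 ± 0.45 in Ht (0.00036). The 2 Ht libraries made from the same material differed for Isg15, with 153 CPM in Ht_1 and 87.4 CPM in Ht_3 before they were summed. Usp18, the protease that removes Isg15 and restrains receptor signaling, rose by 1.67 ± 0.28 in Lt, a call that was lost without con_2 (1.49, adjusted p = 0.0673).

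Stat2 and Irf9 are parts of ISGF3. Stat2 was 85.8 and 71.1 CPM in con, 108 and 112 for Lt and 68.9 and 78.04 for Ht, with a log2 fold change of 0.49 ± 0.17 (SE) from con to Lt (adjusted p = 0.0919) and -0.11 ± 0.17 from con to Ht (0.577). With total-count scaling that last value turned to 1.08 and was called (adjusted p = 0.0029), and it was also above 0 with no filter (0.0061) and with at least 10 counts in every sample (0.015). Irf9 was 54.3 and 50.96 CPM in con and 84.7 and 73.1 for Lt, a log2 fold change of 0.59 ± 0.15 that passed the adjusted p (0.0285) and was below 2-fold. Herc6, the main ligase that attaches Isg15 in the mouse, was 16.1 and 9.31 CPM in con and 19.5 and 25.7 for Lt and was not called.

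The nucleic acid sensors and the OAS family included Oas3, which had the largest fold change of the 37 in each contrast with con. Members of this group that rose numbered 7 of 9 in Lt and 8 of 9 in Mt and in Ht, with median log2 fold changes of 2.90, 3.22 and 3.45. OAS enzymes make short linked oligoadenylates that activate the nuclease RNase L. Oas3 had 2.75 and 1.21 CPM in con, 13.1 for L-con, 22.7 and 59.4 for Lt, 26.8 and 48.04 for Mt3, 55.8 and 87.8 for Mt2, 52.8 and 86.5 for Mt1, 88.5 and 107 for Ht, 235, 214 and 266 for F4/80+ and 244, 243 and 154 for CD11b+ cells. Every step from con through L-con to the lesions was without overlap, both Ht samples were above all other tissue, and all sorted libraries were above all tissue. The con values rested on 30 and 14 reads. Oas3 rose by 4.39 ± 0.62 (SE, log2) in Lt (adjusted p = 0.00267), by 4.84 ± 0.59 in Mt (0.000442) and by 5.62 ± 0.64 in Ht (0.000173).

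Oas1a had 5.401 and 3.36 CPM in con, 14.3 for L-con, 30.1 and 52.7 for Lt, 26.4 and 53.8 for Mt3, 51.2 and 82.2 for Mt2, 51.3 and 71.1 for Mt1, 83.9 and 85.7 for Ht, 219.7, 198 and 246 for F4/80+ and 220.0, 222 and 299 for CD11b+ cells. It has close copies in the genome, so reads can be shared between them. Its log2 fold change was 3.25 ± 0.46 in Lt (adjusted p = 0.00268) and 4.26 ± 0.47 in Ht (0.00016). Oas2 had 3.84 and 3.36 CPM in con, 10.1 for L-con, 17.8 and 37.6 for Lt, 15.1 and 25.7 for Mt3, 28.96 and 60.97 for Mt2, 31.4 and 61.5 for Mt1, 76.3 and 59.6 for Ht, 232, 187 and 226 for F4/80+ and 240.0, 207 and 107 for CD11b+ cells. Neither gene overlapped between con and the lesions, and CD11b+_3 had the lowest Oas2 of the sorted libraries. Oas2 rose by 4.22 ± 0.56 (SE, log2) in Ht (adjusted p = 0.000316), and its call in Lt (2.95 ± 0.55) was lost when con_1, con_2 or Lt_2 was left out (adjusted p 0.051 to 0.0823).

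Oasl2 encodes an OAS-like protein. Its CPM was 10.7 and 7.33 for con, 19.1 for L-con, 40.4 and 93.9 for Lt, 50.8 and 91.6 for Mt3, 93.5 and 151 for Mt2, 90.96 and 147 for Mt1, 164 and 174 for Ht, 269, 302 and 333 for F4/80+ and 294, 301 and 272 for CD11b+ cells. The Ht samples were the highest of all tissue. It rose by 2.90 ± 0.49 (SE, log2) in Lt (adjusted p = 0.00538; 0.0683 without con_2) and 4.21 ± 0.52 in Ht (0.000226).

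Zbp1, a sensor of left-handed nucleic acid that can start necroptosis, had 10.3 and 5.17 CPM in con, 30.5 for L-con, 64.2 and 93.1 for Lt, 45.1 and 88.7 for Mt3, 59.1 and 95.1 for Mt2, 61.3 and 88.3 for Mt1, 78.99 and 91.5 for Ht, 229, 242 and 276 for F4/80+ and 239, 217 and 314 for CD11b+ cells. The lesion groups overlapped one another, with each lesion library above L-con and con. Its log2 fold change was 3.35 ± 0.46 (SE) in Lt (adjusted p = 0.00245). Of the RNA sensors, Dhx58 (LGP2) rose in Lt, Mt and Ht, from 12.7 and 13.6 CPM in con to 28.1 and 37.3 for Lt and 39.2 and 37.4 for Ht, whereas Ifih1 (MDA5) stayed below 2-fold with TMM factors but not with total-count scaling, at 45.95 and 42.3 CPM in con and 66.96 and 72.8 for Ht. Eif2ak2, the kinase PKR that halts translation, was 29.7 and 31.6 CPM in con, 47.1 and 65.8 for Lt and 77.4 and 82.03 for Ht.

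**Figure D2:**
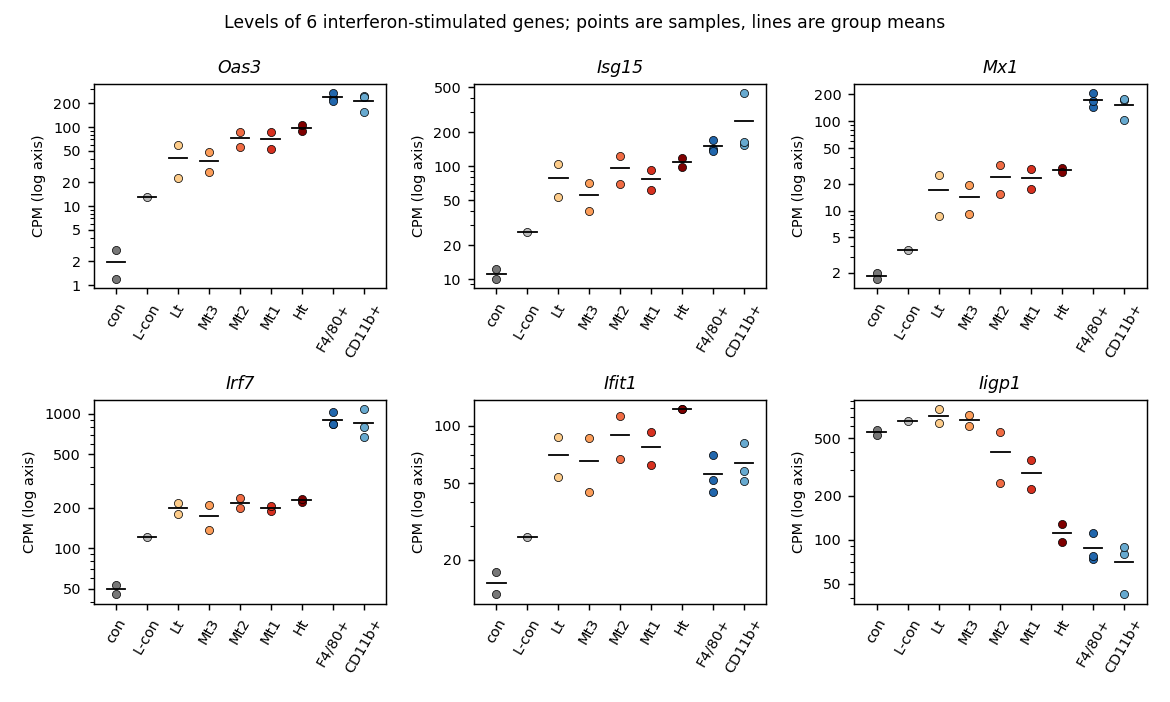
CPM (log axes that do not start at 0) of 6 interferon-stimulated genes by group; each point is a sample and each line a group mean. Oas3, Isg15, Mx1 and Irf7 rise from con through L-con to the lesions and are highest in sorted cells, Ifit1 is highest in Ht and lower in sorted cells, and Iigp1 falls from Lt to Ht.

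Of the 8 antiviral effectors, 6 rose in Lt and 7 rose in Mt and in Ht, with median log2 fold changes of 1.82, 2.03 and 2.55. Ifit2, a member of the family that binds RNA and restrains translation, had 8.06 and 6.12 CPM in con, 21.5 for L-con, 33.5 and 71.6 for Lt, 45.9 and 60.8 for Mt3, 59.03 and 101 for Mt2, 63.97 and 87.2 for Mt1, 97.5 and 110.3 for Ht, 137, 163 and 196 for F4/80+ and 141, 136 and 153 for CD11b+ cells. All lesion samples were above L-con and con. It rose by 2.90 ± 0.42 (SE, log2) in Lt (adjusted p = 0.0027) and 3.86 ± 0.43 in Ht (0.00016). Ifit1, which binds capped foreign RNA, went from 13.2 and 17.2 CPM in con to 122 and 122 for Ht, and Ifit3 from 15.1 and 16.3 to 141 and 132 CPM; Ifit3 has a close copy that can share its reads. The call of Ifit1 in Lt (2.22 ± 0.40) was lost without con_1, con_2 or Lt_2 (adjusted p 0.0519 to 0.0589).

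Mx1, a dynamin-like GTPase against influenza-like viruses of which most laboratory strains carry a defective allele, had 2.01 and 1.72 CPM in con, 3.63 for L-con, 8.803 and 24.9 for Lt, 9.11 and 19.1 for Mt3, 15.4 and 32.6 for Mt2, 17.5 and 29.1 for Mt1, 29.8 and 27.1 for Ht, 145, 168 and 205 for F4/80+ and 175, 178 and 104 for CD11b+ cells. The lesions were above L-con and con, and the sorted cells were well above all lesions. Mx1 rose by 3.18 ± 0.64 (SE, log2) in Lt (adjusted p = 0.0111; 0.067 to 0.101 without con_1, con_2 or Lt_2) and by 3.91 ± 0.65 in Ht (0.000764). Bst2 (tetherin), which holds budding virus at the cell surface, had 256 and 239.6 CPM in con, 356 for L-con, 438 and 498 for Lt, 309 and 467 for Mt3, 335 and 413 for Mt2, 298 and 322 for Mt1, 402 and 352 for Ht, 483, 366 and 494 for F4/80+ and 441, 414 and 837 for CD11b+ cells. It stayed below 2-fold from con to Lt, Mt and Ht (in Ht 0.59, but 1.78 and called with total-count scaling, adjusted p = 0.00167), at 0.92 ± 0.25 (SE, log2) in Lt. Rsad2 (viperin), which makes a chain-terminating nucleotide, and its neighbour Cmpk2, a nucleotide kinase, went from 14.4 and 19.7 to 74.4 and 74.4 CPM and from 14.2 and 18.5 to 51.4 and 57.9 CPM between con and Ht.

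Among the other induced genes, 5 of 6 rose in Lt and 4 of 6 in Mt and in Ht. Parp14, a mono-ADP-ribosyltransferase, had 53.9 and 56.1 CPM in con, 86.9 for L-con, 90.7 and 106 for Lt, 94.7 and 105 for Mt3, 100.2 and 104 for Mt2, 97.9 and 118 for Mt1, 99.8 and 117 for Ht, 227, 243 and 238 for F4/80+ and 183, 183 and 132 for CD11b+ cells. Its lesion samples were all above con and within 2-fold of it on average. Ifi44 had 9.704 and 4.23 CPM in con, 10.97 for L-con, 24.3 and 51.5 for Lt, 22.6 and 46.02 for Mt3, 47.8 and 70.8 for Mt2, 39.9 and 59.96 for Mt1, 61.2 and 77.8 for Ht, 47.6, 48.7 and 47.2 for F4/80+ and 40.1, 27.1 and 42.3 for CD11b+ cells. L-con barely exceeded con_1 for Ifi44, and the lesions lay above both. Ifi44 rose by 3.30 ± 0.54 (SE, log2) in Ht (adjusted p = 0.000762). Xaf1, a partner of the apoptosis inhibitor XIAP, Trim30a and Rtp4 rose by 2.63, 2.25 and 1.81 in Lt, and Ifi35 rose by 1.01. The call of Trim30a was lost without con_2 (adjusted p = 0.0823). That of Ifi35 was lost without either con or either Lt library (adjusted p 0.112 to 0.186) and fell below 2-fold with DESeq2 or RLE factors (0.94) and in a fit of only the groups compared (0.97).

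Of the GBP and IRG genes, in Lt 7 of 8 rose, in Mt 5, and in Ht 5 rose and Iigp1 fell. Gbp3 had 13.5 and 6.81 CPM in con, 23.7 for L-con, 38.9 and 86.9 for Lt, 39.2 and 83.8 for Mt3, 53.6 and 91.2 for Mt2, 51.3 and 79.6 for Mt1, 83.2 and 91.7 for Ht, 111, 143 and 111 for F4/80+ and 99.3, 82.9 and 187 for CD11b+ cells. Its lesion samples were all above L-con and con. Gbp2, Gbp4 and Gbp5 had their highest tissue levels in Lt_2 and Mt3_2, with Gbp2 at 37.1 and 125 CPM in Lt and 46.4 and 117 for Mt3 against 19.6 and 5.43 for con. The largest difference between the con libraries among the 37 genes was that of Gbp2: con_1 was above con_2 by 1.68 on the log2(CPM + 1) scale, and summed T cell and NK cell markers (7 genes each) were 12.6 and 15.7 CPM in con_1 against 3.10 and 3.02 CPM in con_2. In Lt the same sums were 8.50 and 13.3 CPM in Lt_1 and 28.9 and 50.1 CPM in Lt_2, and their part in the GBP levels was not tested. The log2 fold changes from con to Lt were 2.70 ± 0.74 for Gbp2, 2.64 ± 0.54 for Gbp3, 2.89 ± 0.66 for Gbp4 and 2.43 ± 0.54 for Gbp5 (SE), and each call was lost without con_2 or without Lt_2 (adjusted p 0.0887 to 0.305). The same held for Gbp7 (1.56), Igtp (1.37) and Irgm1 (1.04), so that none of the 7 calls remained when con_2 or when Lt_2 was left out. Without con_1 the calls of Gbp4, Gbp5, Gbp7 and Irgm1 were lost (0.0512 to 0.0737), and without Lt_1 those of Irgm1 and Igtp (0.0655 and 0.0698). Irgm1 was also below 2-fold with DESeq2 or RLE factors (0.97). GBP genes are similar in sequence and can share reads.

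Iigp1, an IRG that coats parasite vacuoles, went another way than the other members. Its CPM was 572 and 525 for con, 659 for L-con, 788 and 629 for Lt, 605 and 721 for Mt3, 549 and 247 for Mt2, 353 and 224 for Mt1, 96.1 and 128 for Ht, 73.4, 111 and 77.4 for F4/80+ and 80.1, 42.1 and 89.8 for CD11b+ cells. Its highest value was in Lt_1, Mt2_2 and both Mt1 libraries were below con, and both Ht samples were below all other tissue. The change was 0.37 ± 0.39 (SE, log2) from con to Lt (adjusted p = 0.542), and Iigp1 fell from con to Ht (-2.31 ± 0.41, adjusted p = 0.00108). The hepatocyte sum fell along with it, to 25210 CPM in Mt2_2 and 24290 CPM in Mt1_2, the libraries in which Iigp1 was 247 and 224 CPM, and its part was not tested.

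Between Lt and Ht few members were called with edgeR. Only Oasl2 was called higher (11.7% of all genes were) and only Iigp1 was called lower (20.2% of all genes), and from Mt to Ht 0 members rose (1.5% of all genes) and only Iigp1 fell (13.4%); from Mt to Ht 4 members had an unadjusted p under 0.05, as had 6982 of the 17187 genes tested. DESeq2 called 6 members higher from Lt to Ht and 0 from Mt to Ht, beside 2474 and 446 of the 17187 genes tested. The median log2 fold change of the members was 0.32 from Lt to Ht and 0.30 from Mt to Ht. Both Ht samples were above both Lt libraries for 18 members (40.3% of all genes) and below both for 8 (40.4%); these 8 were Stat2, Irf9, Mx2, Bst2, Ifi35, Iigp1, Irgm1 and Igtp. Iigp1 fell by 2.68 ± 0.41 (SE, log2) from Lt to Ht (adjusted p = 0.00311) and by 1.92 ± 0.36 from Mt to Ht (0.00981; 0.0845 without Ht_2). Oasl2 rose by 1.31 ± 0.46 (adjusted p = 0.0421), a call that was lost without Lt_1 (0.23), Ht_2 (0.126) or Ht_3 (0.0503).

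The medians of the role groups ran from positive to negative over this step with TMM factors, and were all positive with total-count scaling. The median log2 fold change from Lt to Ht was 0.71 for the antiviral effectors, 0.48 for the sensors and OAS genes, 0.27 for the other induced genes, -0.01 for the regulators (0.083 with DESeq2 or RLE factors and 0.865 with total-count scaling) and -0.43 for the GBP and IRG genes. Oas1a, Oas2 and Oas3 had 1.01 ± 0.40, 1.27 ± 0.48 and 1.23 ± 0.50 (SE), with adjusted p of 0.0681, 0.0563 and 0.0735 with edgeR, and were called with DESeq2 (0.029, 0.0205 and 0.0303) and, with edgeR, with no filter, with total-count scaling and with Ht as 3 libraries (adjusted p up to 0.044). Cmpk2 passed the adjusted p (0.0147) below 2-fold (0.81 ± 0.21). Stat2 (-0.60 ± 0.17, adjusted p = 0.0191), Irf9 (-0.43 ± 0.15, 0.0398) and Irgm1 (-0.73 ± 0.24, 0.0355) passed the adjusted p downward and below 2-fold, and had positive values under total-count scaling (0.29, 0.47 and 0.16). With that scaling the median over all genes was 0.87 in place of -0.01 and the members' median was 1.19 in place of 0.32, with 17 members called higher and 1 lower beside 6216 higher and 2081 lower among the 17187 genes tested. The GBP and IRG median became 0.42 and thus changed sign, while it stayed below the median of all genes. The share of higher calls among all calls went from 36.6% to 74.9%.

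Total-count scaling had the same kind of effect on the other contrasts. Over all genes the median became 0.40 in place of 0.10 for con to Lt, 0.72 in place of 0.08 for con to Mt and 1.27 in place of 0.09 for con to Ht, and the members' medians were then 2.12, 2.40 and 3.29. The share of higher calls went from 66.3% to 90.6% from con to Mt, from 51.7% to 79.7% from con to Ht and from 10.0% to 59.3% from Mt to Ht. The members' median was above that of all genes under either scaling.

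**Figure D3:**
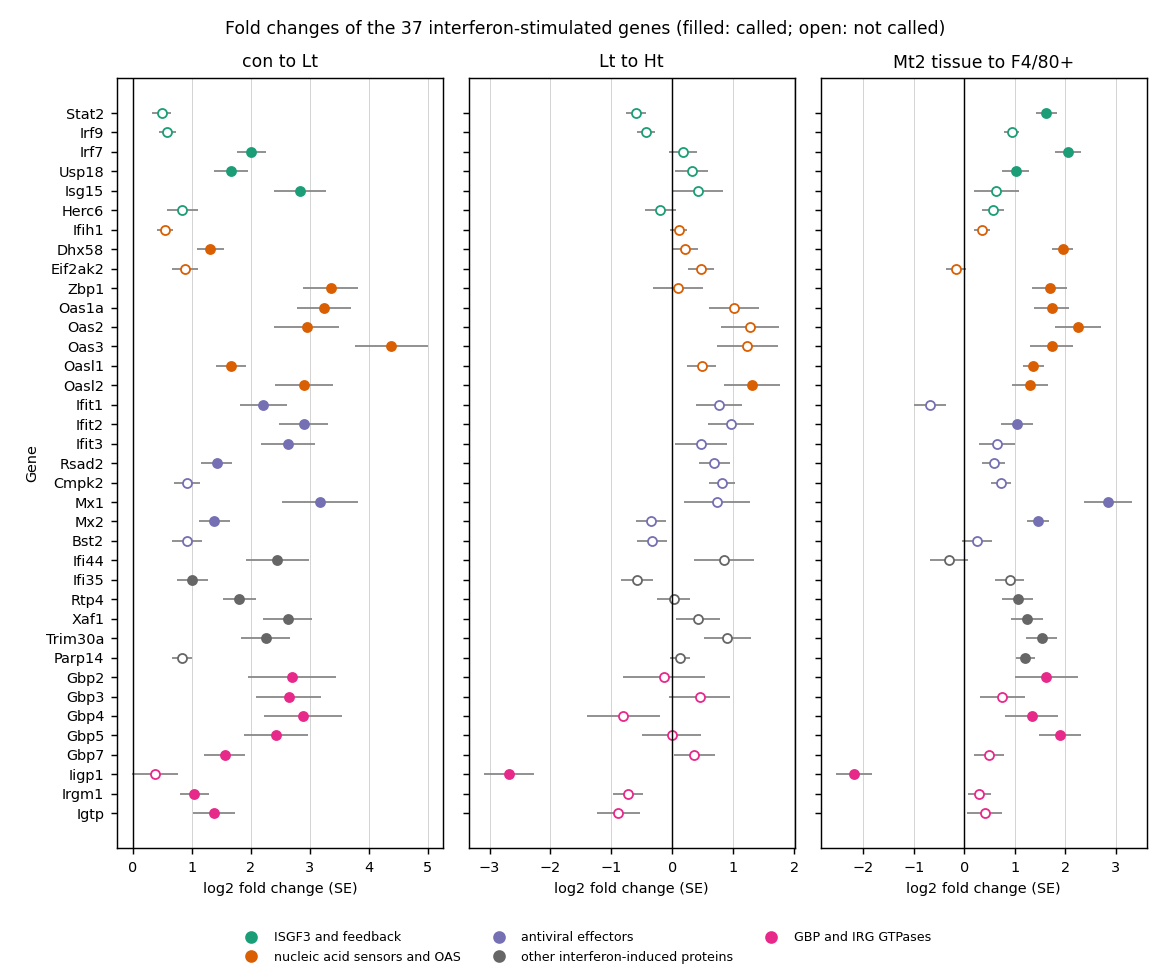
Log2 fold changes (edgeR, with SE) of the 37 genes from con to Lt, from Lt to Ht and from Mt2 tissue to F4/80+ cells; the axes differ between panels, colours give the role, filled points were called and open points were not. All points of the first panel lie right of 0, those of the second lie on both sides of 0 with Iigp1 far to the left, and in the third Mx1 lies farthest right and Iigp1, Ifit1, Ifi44 and Eif2ak2 lie left of 0.

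Tumor-free liver from a tumor-bearing mouse stood between healthy liver and the lesions on the mean of the 37 genes. The single L-con library was above both con libraries for all 37 members, as was so for 38.3% of all genes, and this single library was described without a test. The median log2 difference from con was 0.89 over the members and 0 over all genes. The largest differences were 2.72 for Oas3, 1.97 for Zbp1, 1.69 for Oas1a and 1.59 for Ifit2, and the smallest were 0.25 for Iigp1 and 0.27 for Ifi35. For Irf9 the L-con value of 79.8 CPM was above the mean of every lesion group. Summed monocyte markers were 91.9 CPM in L-con, cycling-cell markers (4 genes) were 85.3 CPM against 8.19 and 12.8 CPM in con, and Kupffer cell markers (5 genes) were 953 CPM against 333 and 445 CPM; the hepatocyte sum was 159400 CPM. Their part in the difference was not tested.

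**Figure D4:**
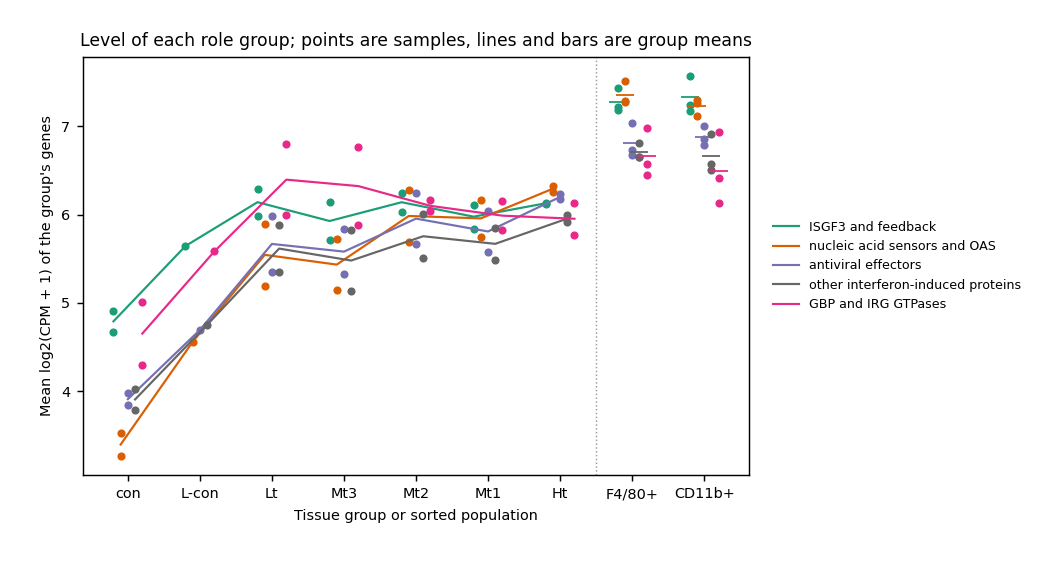
Mean log2(CPM + 1) of the genes of each role (colours) by group; points are samples, lines join the tissue group means in order of tumor content and short bars are the means of the sorted cells. All 5 roles rise from con through L-con to Lt, after which sensors and antiviral effectors reach their highest tissue mean in Ht while the GBP and IRG genes go down, and the sorted cells lie above Ht for every role.

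In the fractions sorted from Mt2 lesions most members were higher than in the tissue. All 6 sorted libraries carried macrophage markers at high levels, and neutrophil markers summed to 170.5, 258 and 481 CPM in the F4/80+ and 1196 to 3620 CPM in the CD11b+ libraries against 109.7 and 162 CPM for Mt2. From Mt2 tissue to F4/80+ cells 20 members were higher and 1 lower, against 17.2% and 25.2% of 18407 genes, and from Mt2 tissue to CD11b+ cells 19 were higher and 1 lower, against 17.6% and 26.3%. Median log2 fold changes were 1.04 and 1.21 over the members and -0.12 and -0.08 over all genes. All 3 F4/80+ libraries were above every tissue sample for 27 members (23.9% of all genes), and all 3 CD11b+ libraries for 26 (20.5%). The mean log2(CPM + 1) of the 37 genes was 6.97 ± 0.11 (SD, n = 3) in F4/80+ and 6.92 ± 0.156 in CD11b+ cells. Sorted cells and tissue were counted in separate tables, and an effect of the separate processing cannot be told apart from that of the cell fraction. Hepatocyte sums were 70.4 to 327 CPM in the sorted libraries. Without Mt2_1, which leaves 1 Mt2 library, fewer members were called higher in both fractions, as were fewer of all genes. The members' medians were then 0.83 for F4/80+ and 0.96 for CD11b+ cells, against -0.066 and -0.041 over all genes.

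Mx1, Oas2 and Irf7 had the largest increases from Mt2 tissue to the sorted fractions. Mx1 was higher by 2.84 ± 0.48 (SE, log2) in F4/80+ (adjusted p = 0.000161) and by 2.66 ± 0.47 in CD11b+ cells (0.00024). For Oas2 the values were 2.25 ± 0.45 and 2.04 ± 0.45, and for Irf7 2.05 ± 0.27 and 1.98 ± 0.27. Dhx58 was higher by 1.95 ± 0.21 in F4/80+ cells. Stat2 was 256, 262 and 273 CPM in F4/80+ cells against 93.00 and 78.1 for Mt2 tissue and was higher by 1.62 ± 0.21 (adjusted p = 1.59e-05).

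Several members did not follow this pattern. Ifit1 had 44.9, 52.2 and 70.4 CPM in F4/80+ and 51.7, 58.03 and 81.04 for CD11b+ cells against 67.2 and 112 for Mt2 and 122 and 122 for Ht tissue. All 6 sorted libraries were below both Ht samples for Ifit1. The fold change from Mt2 was -0.68 ± 0.33 (SE, log2; adjusted p = 0.0906) and -0.49 ± 0.33 (0.211), and without Mt2_1 Ifit1 was called lower in F4/80+ cells (-1.0, adjusted p = 0.0419). Ifit2 and Ifit3, which lie in the same cluster, were above both Mt2 libraries in every sorted library, with Ifit3 at 164, 165 and 215 CPM in F4/80+ cells against 87.99 and 145 for Mt2. Eif2ak2 was 53.4, 60.2 and 69.1 CPM in F4/80+ against 57.2 and 79.02 for Mt2, and Ifi44 47.6, 48.7 and 47.2 against 47.8 and 70.8; neither was called. In CD11b+ cells all 3 libraries lay below both Mt2 libraries for both genes, with 41.1 to 52.8 CPM for Eif2ak2 (-0.49 ± 0.195, adjusted p = 0.0445, below 2-fold) and 27.1 to 42.3 CPM for Ifi44 (-0.70 ± 0.375, 0.124). Iigp1 was called lower in both fractions, with -2.19 ± 0.36 (adjusted p = 0.000157) and -2.49 ± 0.37 (4.67e-05), with 42.1 to 111 CPM in sorted cells.

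No member was called between the sorted fractions. From CD11b+ to F4/80+ cells 0 members were called in either direction by edgeR, where 0.00701% of 14263 genes were called higher and 0.0701% lower, and DESeq2 also called 0 members. An unadjusted p under 0.05 was found for 2 of the 37, Parp14 (0.46 ± 0.17 SE, log2) and Gbp7 (0.49 ± 0.20), and for 1503 of all genes. The values over the 37 genes ran from -0.81 for Isg15 to 0.49 for Gbp7, with a median of 0.01.

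CD11b+_3 lay outside the range of the other 2 CD11b+ libraries for most genes, the members among them. It was above both other CD11b+ libraries for 24 members (42.6% of 14263 genes) and below both for 12 (44.9%). Isg15 was 439 CPM against 153 and 162, Bst2 837 against 441 and 414, and Gbp2 374 against 147 and 151, whereas Oas2 was 107 against 240.0 and 207 and Mx1 104 against 175 and 178. The difference went with gene length: its median was 0.56 on the log2(CPM + 1) scale over the 19 members of at most 3927 bases and -0.11 over the 18 longer ones (Spearman's rho -0.598 across the 37 genes, which share these libraries and are not independent replicates). Over all 14263 genes the medians on either side of that length were 0.26 and -0.27 and rho was -0.487. The part of the neutrophil markers, given above, in these values was not tested. Without this library 16 members were higher in CD11b+ cells than in Mt2 tissue, and Isg15, called with it (1.38 ± 0.46, adjusted p = 0.0189), was not (0.71, 0.105). That call was also lost without Mt2_1 (adjusted p = 0.154), with total-count scaling (0.0547) and in a fit of only the groups compared (0.0774).

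**Figure D5:**
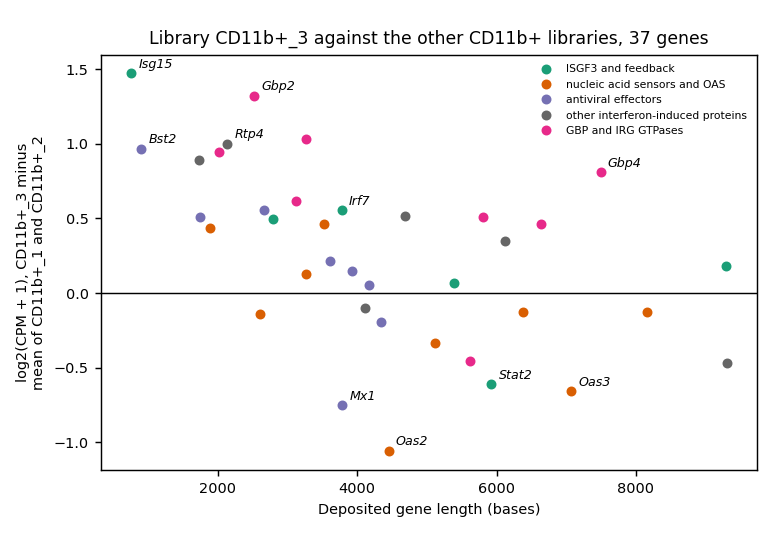
Difference of library CD11b+_3 from the mean of CD11b+_1 and CD11b+_2 on the log2(CPM + 1) scale (vertical) against the deposited gene length in bases (horizontal) for the 37 genes, coloured by role. The short genes Isg15 and Bst2 lie at the upper left, and Oas2, Mx1, Oas3 and Stat2 lie below 0.

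Compared per length, the order of the members also differed between groups. As CPM per kilobase of the deposited gene length, Bst2 was highest in every group, from 275 in con to 624 in CD11b+ cells. Iigp1 came second in con (176), Lt (227) and Mt2 (127.5), where Isg15 was next (127.4), and Isg15 was second in Ht (142.5) ahead of Ifit3 (78.0). In F4/80+ cells Irf7 (239) and Isg15 (198) followed Bst2.

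Few counts fell on the ligands that induce these genes. Of 21 interferon genes 15 had 0 counts in all 20 libraries, which allows at most 0.187 CPM in the shallowest library (3 counts, before TMM scaling; this limit covers counting error only). Ifnb1 had at most 4 counts in a tissue library, 1 or 2 in the Mt2 libraries, 4, 7 and 3 in the F4/80+ libraries and 4, 18 and 32 in the CD11b+ libraries. The largest of these counts was in CD11b+_3. From Mt2 tissue to CD11b+ cells Ifnb1 was called higher (3.44 ± 1.17, SE, log2, adjusted p = 0.0241), a value that rests on those few counts and depends on the prior count of the fit, and to F4/80+ cells it had 1.47 (adjusted p = 0.334). The call was lost without CD11b+_3 (2.504, adjusted p = 0.0756), Mt2_1 (0.0578) or Mt2_2 (0.144) and in a fit of only the groups compared (0.0521). Ifng had at most 6 counts in tissue and 8 in sorted cells. No ligand passed the filter on low counts in the tissue comparisons.

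Of 9 receptor and kinase genes 0 were called from con to Lt and 2 rose from con to Ht, Il10rb by 1.88 ± 0.30 (SE, log2) and Ifngr1 by 1.40 ± 0.25, where 25.8% of all genes were called higher. Of 8 interferon factors 4 rose in Lt (12.4% of all genes did), with Batf2 (3.49) and Irf8 (1.69) the largest; both calls were lost without con_2 or without Lt_2 (adjusted p 0.134 to 0.157), and that of Batf2 also without con_1 (0.123). Irf1 was 37.6 and 31.5 CPM in con and 59.9 and 95.9 in Lt. In Ht 3 factors rose and 2 fell, Irf3 by 1.47 on the log2 scale and Irf2 by 1.17, calls that total-count scaling ended (-0.28 and 0.02); of all genes 25.8% were called higher and 24.1% lower, so these counts lie near the background. Among 7 brakes on signaling, Socs1 rose by 3.19 ± 0.43 and Socs3 by 1.88 ± 0.125 in Lt, and 5 rose in Ht.

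Of 13 sensors upstream of interferon 7 rose in Lt and 8 in Ht, against 12.4% and 25.8% of all genes. Mb21d1 (cGAS), the sensor of cytosolic DNA, rose by 4.07 ± 0.70 (SE, log2) in Lt and by 5.69 ± 0.69 in Ht. It had 4 and 5 counts in the con libraries, and its call in Lt was lost without con_2 (adjusted p = 0.0612). Tmem173 (STING), which relays its signal, rose by 3.13 ± 0.43 and 4.34 ± 0.44. Mavs, which relays the signal of RNA sensors, fell by 2.24 in Ht. Of 46 further interferon-stimulated genes that are not among the 37, 29 rose in Lt and 0 fell, with a median of 1.59, and 32 rose in Ht and 2 fell (Gbp10 by 2.52 and Lgals9 by 2.02). The call of Gbp10 was lost without con_1 (-1.94, adjusted p = 0.053), and Lgals9 was below 2-fold with total-count scaling (-0.83). From Lt to Ht 1 of them rose and 5 fell, against 11.7% and 20.2% of all genes, with Gbp10 (-3.24) and Cxcl11 (-1.90) the largest. The call of Cxcl11 was lost without Lt_2 (-0.71, adjusted p = 0.428), Ht_2 (0.145) or Ht_3 (0.066), and with total-count scaling (0.235).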

How the data were processed

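RNA-seq of liver tissue (14 libraries) and of sorted cells (6 libraries) was deposited as 2 tables of counts per gene, which the authors made from their reads without normalization. Per the labels and the submitters' processing notes, CASAVA, HISAT2 2.0.5, featureCounts 1.5.0-p3 and GRCm38 (mm10) were used. All 20 columns matched a sample, and none was left over. The counts of Ht_1 and Ht_3 (the same material, by the methods) were summed, and keeping 3 Ht libraries was an alternative.

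Groups were taken from the sample labels. Genes with low counts were removed with filterByExpr, counts were scaled with TMM factors, and edgeR 4.0.16 (R 4.3.3) was used to fit its quasi-likelihood model to 13 tissue samples, to 6 sorted libraries and to all 19 samples together. P-values were adjusted by the Benjamini-Hochberg method over all genes tested. SE is the fold change divided by the square root of the F statistic. The threshold (adjusted p of at most 0.05 and at least 2-fold) is that of the study. Mt is the mean of Mt3, Mt2 and Mt1. L-con has 1 library and was described without a test. CPM come from the fit of 19 samples, apart from those of Ht_1 and Ht_3 before summing, which used factors over the 20 libraries. Before taking log2, 1 CPM was added. The libraries held 16032085 to 20548370 counts each, which makes 3 counts equal to 0.146 to 0.187 CPM. The scripts were tested on simulated data.

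The members and the lists were chosen with earlier results of these data known. All 37 genes could be named. Values in every sample were given, for each role, for the member with the highest mean tissue CPM and the one with the largest log2 range of tissue group means, and for up to 3 called members with the largest change per comparison. A few further members are described by their values in the groups concerned, and were picked after their values were seen. Genes outside the 37 were named when among the 3 largest called changes of their list, besides Irf1, Ifng and Ifnb1; 1 further gene of that rule is not reported here. Alternatives were DESeq2 1.42.0, RLE factors, total-count scaling, no filter, at least 10 counts in every sample, the replicate number as a block, a fit of only the groups compared and leaving out each library. Promoters were taken from RefSeq tables (GRCm38.p6), in which 10 of the 37 genes had no entry.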

Additional observations from a re-analysis of the deposited data

Results flagged for a closer look

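The tumor-free liver library (L-con), which enters no test because it is the only one of its group, was above both con libraries for 37 of the 37 interferon-stimulated genes, as was so for 38.3% of all genes. Its summed monocyte markers were 91.9 CPM against 12.8 and 9.74 CPM in con, and their part in the difference was not tested.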

How the results depend on the processing

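With 2 libraries in most groups, leaving out 1 moved several counts of called members. Higher calls over all genes from con to Lt also fell without con_1, con_2 or Lt_2. From con to Lt the count of 28 higher became 11 to 27. From Lt to Ht the 1 higher became 0 to 8 (0 without Lt_1, Ht_2 or Ht_3, and 8 without Lt_2), from Mt to Ht the 0 higher became 0 to 1 (1 without Mt1_2 or Mt2_2) and the 1 lower 0 to 1, and from Mt2 tissue to F4/80+ cells the 1 lower became 1 to 2. From Lt to Ht, higher members numbered 6 with DESeq2 (2474 of 17187 genes) and 17 with total-count scaling (6216 of 17187). They numbered 4 with RLE factors (2304 of 17187) and 6 with no filter (2658 of 29359). With at least 10 counts in every sample they numbered 2 (1467 of 12022). With Ht as 3 libraries they numbered 4 (2302 of 17391), and in a fit of only the groups compared 3 (2343 of 15580). From Mt to Ht they numbered 8 with total-count scaling (2587 of 17187 genes). They numbered 1 with no filter (642 of 29359) and 1 with Ht as 3 libraries (461 of 17391). The cause was not tested. All other counts of members stayed within 1.5 times under every alternative run.

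The values that changed sign were Stat2 from con to Ht (1.08 and called with total-count scaling, 0.0061 with no filter, 0.015 with at least 10 counts, and -0.25 to 0.034 when 1 library was left out), Stat2, Irf9, Irgm1 from Lt to Ht (0.29, 0.47 and 0.16) and Irf2 from con to Ht (0.02) with total-count scaling, and, when 1 library was left out, Ifi44 (-0.57 to 0.044) and Eif2ak2 (-0.38 to 0.13) from Mt2 tissue to F4/80+ cells, both positive without Mt2_2. Over 100 fold changes, 1142 values kept direction and call, 76 lost the call, 27 gained it and 10 changed sign. Over all genes, calls between CD11b+ and F4/80+ cells were 1 higher and 10 lower with edgeR, 133 and 167 with DESeq2, 90 and 152 with no filter, 28 and 50 with the replicate block and 40 and 96 without CD11b+_3.

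Replicate numbers are shared between groups, but nothing says that they mark a shared animal or batch, and deviations of same-numbered samples correlated with r of 0.137 to 0.525 for the 6 pairs of groups among Lt, Mt3, Mt2 and Mt1, -0.111 for con and Lt and -0.249 for Mt2 and Ht. Of the 3 F4/80+ libraries none correlated best with the CD11b+ library of its own number (r = -0.069, -0.121 and 0.0139). With the replicate block 28 members were higher from con to Lt, beside 2229 of the 17187 genes tested. From Lt to Ht 5 members were higher (2221 of all genes), among them Oas1a, Oas2 and Oas3 (adjusted p 0.0129 to 0.0263). From Mt to Ht 1 member was higher (438 of all genes). From Mt2 tissue to CD11b+ cells Isg15 was below 2-fold (0.97) with the block, and Ifnb1 lost its call (adjusted p = 0.0856). With the numbers of Lt exchanged, chosen after seeing the data, 26 members were higher from con to Lt (1919 of 17187 genes). With those of Ht exchanged 1 member was higher from Mt to Ht (463 of 17187).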
